A study of Homo sapiens with 24 samples.

Results

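SPRY4, DUSP6, ETV4 and MYC are transcripts that rise and fall with the activity of the MAP kinase ERK, and their levels are described here in OVCAR-3 ovarian cancer cells over drug treatments and over total and polysome RNA. They are 4 of the 14884 genes that carry a symbol in the platform table, and each was read by 1 probeset, found by that symbol. All 4 were among the 7442 tested genes, those with a mean log2 signal of 6.54 or more, which is the median over named genes. In RefSeq (build GRCh38.p14) SPRY4 spans chr5:142310430-142325021 and DUSP6 spans chr12:89347235-89352501. ETV4 spans chr17:43527846-43546340, and MYC lies on chromosome 8. They were chosen from earlier values of the same arrays, above all from their higher signal with INK128 and with INK128 plus carboplatin and, for SPRY4, from total RNA with carboplatin, so these differences are given as a description with no test. The comparisons that are tested share DMSO, carboplatin, INK128 or combination arrays with them, and none is independent of the choice.

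OVCAR-3 is a human cell line of high-grade serous ovarian cancer from a platinum-resistant relapse. All groups were of this 1 line, grown in medium with insulin and serum. Control cells received DMSO, the solvent. Carboplatin, a platinum drug that cross-links DNA, was given at 1 µM for 5 h. INK128, an inhibitor of the kinase mTOR in both of its complexes, was given at 0.25 µM. In the combination the cells received INK128 for 19 h before carboplatin was added for 5 h, 24 h in all. Cells with INK128 alone were likewise analysed at 24 h, per the study's text. Polysome RNA is the mRNA of gradient fractions 7 to 14, which carries many ribosomes and stands for heavily translated mRNA, and total RNA was an aliquot of the same lysates. Each value is the log2 signal of 1 Affymetrix Human Gene 2.0 ST array, so that a difference of 1 is a 2-fold difference.

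When a growth factor binds its receptor, the small GTPase RAS activates RAF kinases, which activate MEK and then ERK. ERK phosphorylates transcription factors and raises a set of short-lived transcripts, several of which encode proteins that restrain the same pathway. Such transcripts are used as a readout of ERK activity in tumour cells. SPRY4 (Sprouty 4) is an inhibitor of receptor signalling to RAS and RAF. DUSP6 is a phosphatase of the cytoplasm that removes phosphate from ERK. ETV4 is an ETS transcription factor of the PEA3 group that is expressed downstream of ERK. MYC is a transcription factor that drives genes of growth and ribosome production, and its short-lived mRNA and protein are both raised by growth factor signalling.

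The promoter of DUSP6 is shown because DUSP6 was the only 1 of the 4 members with a promoter window used here. It is the stretch of 250 bases before the gene start in RefSeq, build GRCh38.p14, at chr12:89352502-89352751 on the minus strand, written 5′ to 3′. Capitals mark GGAA, the core that ETS factors bind, read on both strands and so also as TTCC.
DUSP6 promoter: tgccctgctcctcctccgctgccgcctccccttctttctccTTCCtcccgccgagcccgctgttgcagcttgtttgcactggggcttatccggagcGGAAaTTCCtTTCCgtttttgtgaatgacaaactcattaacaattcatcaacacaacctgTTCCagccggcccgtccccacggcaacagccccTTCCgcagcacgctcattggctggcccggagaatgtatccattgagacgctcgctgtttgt
The core occurred 6 times, and 92.7% of the 35116 RefSeq promoter windows of the same length held it at least 1 time. The longer ETS motif CCGGAA, the AP-1 motif TGANTCA, the CRE TGACGTCA and the E-box CACGTG, to which MYC binds with MAX, were searched on both strands and none was in this window. The ETS, AP-1, CRE and E-box letters were in 14.5%, 6.57%, 1.65% and 6.34% of all windows. Motifs were searched for description, and a match is not a binding site.

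Of 24 arrays, 20 were kept, 13 of polysome RNA and 7 of total RNA. The groups were 3 DMSO, 4 carboplatin, 3 INK128 and 3 combination arrays of polysome RNA, and 2 DMSO, 3 carboplatin and 2 INK128 arrays of total RNA. The arrays labelled carboplatin polysome 1, carboplatin total 1 and combination total 1 and 2 were left out, because their values are those of columns that the study's own dataset tables name for another condition (676, 676, 527 and 527 equal values in as many shared probesets). No combination array of total RNA remained. Of the carboplatin arrays, 2 of polysome RNA (labelled replicates 2 and 3 as well) and 1 of total RNA (labelled replicate 1) carry a further code in their label that the sources used here do not explain. They are called coded arrays. For the 4 members in polysome RNA, carboplatin against DMSO and combination against carboplatin are given with and without them. Other comparisons with carboplatin, and those of the listed genes, include them, apart from some counts of called genes. The study's methods speak of 2 complete sets of biological replicates that were performed independently, fewer than the 3 or 4 arrays of some groups. Neither they nor the labels say which array came from which set, so that part of the spread behind the p-values may be technical. Array medians ranged from 4.97 to 5.13. Of 12 markers of ovarian epithelial cancer, 10 were named and all 10 passed the filter, at mean signals of 6.68 to 12.21, with PAX8 at 12.21. None of the 2 named fibroblast markers (2.78 and 4.06) and none of the 2 named endothelial markers (5.07 and 5.5) passed. Of the 2 named leukocyte markers CD14 was at 4.42, while CD68, which many other cells also express, was at 9.75.

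In polysome RNA the 4 transcripts were higher with INK128 than with DMSO. SPRY4 was at 8.73, 8.63 and 8.49 in DMSO and at 9.67, 10.06 and 9.76 with INK128. DUSP6 was at 7.94, 8.18 and 7.73 in DMSO and at 8.97, 9.16 and 8.80 with INK128. For both inhibitors of the pathway, every INK128 array lay above every DMSO array. ETV4 was at 9.54, 9.11 and 9.38 in DMSO and at 10.27, 10.13 and 10.17 with INK128. MYC was at 8.27, 8.55 and 8.34 in DMSO and at 8.93, 9.16 and 9.07 with INK128. Both transcription factors also had no overlap between the groups. The log2 difference was 1.21 (SE 0.21) for SPRY4, 1.02 (SE 0.18) for DUSP6, 0.85 (SE 0.13) for ETV4 and 0.66 (SE 0.22) for MYC, or 2.32-fold, 2.03-fold, 1.80-fold and 1.58-fold. Of all tested genes 18.1% had every INK128 array above every DMSO array, 4.62% passed an adjusted p of 0.05 as higher and 3.6% as lower. Since the members were chosen from this contrast, nothing is read from these shares. In RNA of whole cultures, a change per cell and a change in the number of cells that express a gene cannot be told apart.

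The combination arrays of polysome RNA stood at the height of INK128 alone. SPRY4 was at 9.85, 10.06 and 10.31, DUSP6 at 8.84, 9.03 and 8.63, ETV4 at 10.10, 9.96 and 10.22, and MYC at 8.97, 9.23 and 9.18. Each of these values lay above every DMSO array of its gene. Against DMSO the log2 differences were 1.45, 0.88, 0.75 and 0.74 in that order. This contrast was used to choose the members too, and it shares its DMSO arrays with the one above. Of all tested genes, 4.56% were called higher, 8.52% were called lower, and 11.1% had every combination array above every DMSO array.

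**Figure D1:**
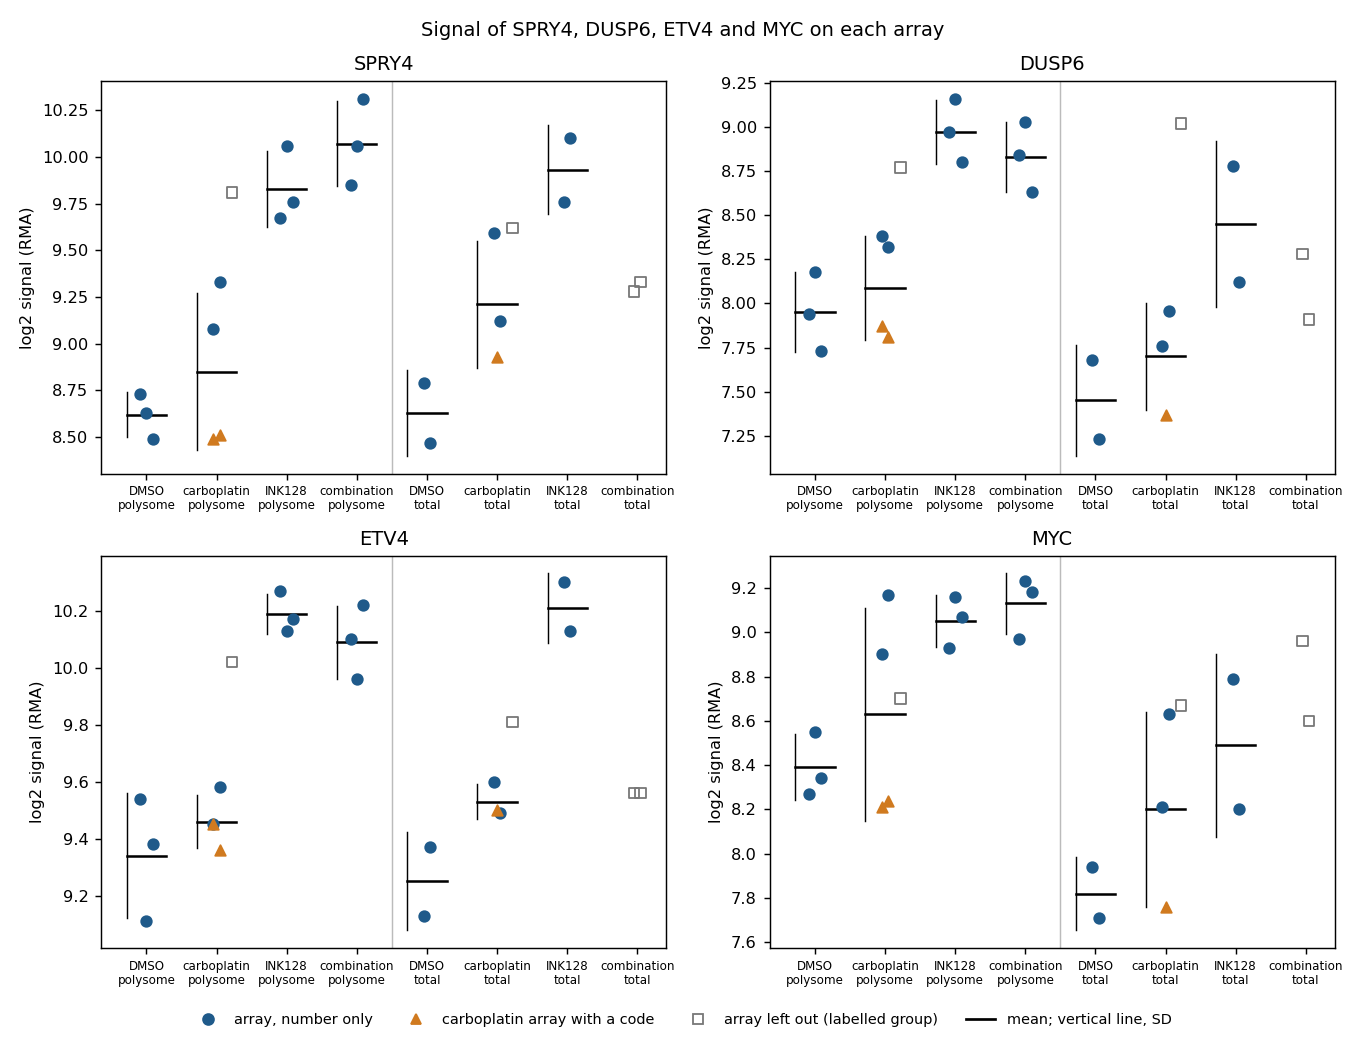
Log2 signal of the 4 transcripts on each array, by treatment, with polysome RNA left and total RNA right of the grey line. Circles and triangles are kept arrays (triangles, carboplatin arrays with a code), open squares are the 4 arrays left out, drawn at their labelled group, horizontal bars are means and vertical lines the SD of kept arrays. INK128 and combination arrays of polysome RNA lie above all DMSO arrays for the 4 genes, from 9.67 to 10.31 against 8.49 to 8.73 for SPRY4, and the carboplatin arrays with a code lie below those without for SPRY4, DUSP6 and MYC.

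The combination was then set against carboplatin alone, which asks what INK128 adds to carboplatin. This comparison uses the combination arrays from which the members were chosen, so it is a description too, with no test of the 4 genes. SPRY4 was at 9.08 and 9.33 on carboplatin arrays 2 and 3 and at 8.49 and 8.51 on coded arrays 2 and 3, all below the lowest combination array of 9.85. It stood higher in the combination by 1.22 (SE 0.20). DUSP6 was at 8.38, 8.32, 7.87 and 7.81 with carboplatin, and the difference was 0.74 (SE 0.17). ETV4 was at 9.45, 9.58, 9.45 and 9.36 with carboplatin, and the difference was 0.63 (SE 0.12). In these 3 genes no carboplatin array reached a combination array, as in 9.57% of all tested genes. MYC was at 8.90, 9.17, 8.21 and 8.24 with carboplatin, so that array 3 reached into the combination, and its difference was 0.50. Of all tested genes 5.67% were called higher and 12.1% lower (limma with Benjamini-Hochberg adjustment), and nothing is read from these shares.

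With the coded arrays left out, the difference between combination and carboplatin was 0.87 for SPRY4, 0.58 for ETV4, 0.48 for DUSP6 and 0.09 for MYC. With 1 array left out in turn, it ran from 1.10 to 1.38 for SPRY4, from 0.64 to 0.84 for DUSP6, from 0.57 to 0.70 for ETV4 and from 0.35 to 0.68 for MYC, whose highest value came without carboplatin array 3. Without the coded arrays the difference of MYC was thus close to 0.

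Adding carboplatin to INK128 left each of the 4 transcripts within the spread of the arrays. The log2 difference between combination and INK128 in polysome RNA was 0.24 for SPRY4 (95% interval -0.21 to 0.69), -0.14 for DUSP6 (-0.53 to 0.25), -0.10 for ETV4 (-0.37 to 0.18) and 0.08 for MYC (-0.39 to 0.54). The adjusted p-values ran from 0.916 to 0.964, and in each gene the groups overlapped. Limma called 0 of 7442 genes here (0%), and 205 had an unadjusted p under 0.05. These intervals still allow a difference of up to 0.69 for SPRY4, so equal levels are not shown. The difference of the INK128 effect with and without carboplatin, added after the data had been seen, was 0.01 for SPRY4 (interval -0.61 to 0.63), -0.28 for DUSP6 (-0.82 to 0.25), -0.21 for ETV4 (-0.60 to 0.17) and -0.17 for MYC (-0.81 to 0.47). Its adjusted p-values were 0.979 to 0.996, and limma called 0 of 7442 genes (0%), with 1.36% at an unadjusted p under 0.05.

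Carboplatin alone gave values that differed with the form of the array labels. With all 4 kept arrays of polysome RNA the log2 difference from DMSO was 0.23 for SPRY4 (interval -0.19 to 0.65), 0.14 for DUSP6 (-0.22 to 0.51), 0.12 for ETV4 (-0.14 to 0.38) and 0.25 for MYC (-0.19 to 0.68). All had an adjusted p of 1, and limma called 0 of 7442 genes (0%), with 176 at an unadjusted p under 0.05. On arrays 2 and 3 SPRY4 (9.08 and 9.33), DUSP6 (8.38 and 8.32) and MYC (8.90 and 9.17) were above every DMSO array, while ETV4 (9.45 and 9.58) overlapped with DMSO. The share of all tested genes above every DMSO array on these 2 arrays was not counted, so nothing is read from this. On the coded arrays SPRY4 (8.49 and 8.51) and DUSP6 (7.87 and 7.81) lay within the range of DMSO, MYC (8.21 and 8.24) lay just below it, and ETV4 (9.45 and 9.36) lay within it.

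With arrays 2 and 3 alone the difference from DMSO in MYC was 0.65 (adjusted p = 0.0393), against -0.16 with the coded arrays alone. Of all tested genes, 2.42% were then called higher. In that fit SPRY4 differed by 0.59 (adjusted p = 0.09), DUSP6 by 0.40 (0.247) and ETV4 by 0.17 (0.584), and with the coded arrays alone the values were -0.12, -0.11 and 0.06. The split by code follows the labels, but the fit with the coded arrays alone was chosen after the data had been seen. The DMSO arrays of this comparison were also used to choose the members, and each part of the split holds 2 carboplatin arrays. What the code stands for and its part in these differences were not tested.

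In total RNA the members stood higher with INK128 as well. SPRY4 was at 8.79 and 8.47 in DMSO and at 9.76 and 10.10 with INK128. DUSP6 was at 7.68 and 7.23 in DMSO and at 8.78 and 8.12 with INK128. ETV4 was at 9.13 and 9.37 in DMSO and at 10.30 and 10.13 with INK128, and MYC at 7.94 and 7.71 against 8.79 and 8.20. The pairs of arrays did not overlap in any of the 4 genes, though INK128 array 2 gave lower DUSP6 and MYC than array 1. The log2 differences were 1.30 (SE 0.25), 1.00 (SE 0.28), 0.96 (SE 0.18) and 0.67 (SE 0.29). These too were used to choose the members, and nothing is read from the 20.6% of tested genes with the same lack of overlap, or from the 0.121% and 0.0941% called higher and lower.

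Carboplatin in total RNA gave 9.59 and 9.12 for SPRY4 on arrays 2 and 3 and 8.93 on the coded array. All were above DMSO, and the difference of 0.58 is a description, since SPRY4 was noted for it before. DUSP6 was at 7.76, 7.96 and 7.37, ETV4 at 9.60, 9.49 and 9.50, and MYC at 8.21, 8.63 and 7.76. ETV4 also had every carboplatin array above DMSO, as did 7.28% of all tested genes. The differences were 0.24 for DUSP6 (interval -0.32 to 0.81), 0.28 for ETV4 (-0.09 to 0.65) and 0.38 for MYC (-0.22 to 0.97), each at an adjusted p of 0.994. Limma called 0 of 7442 genes (0%), and 199 had an unadjusted p under 0.05. The count was 11 without the coded array.

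The order of the levels differed in 1 respect between the genes. In polysome RNA the mean of SPRY4 fell from the combination (10.07 ± 0.23, SD, n = 3) to INK128 (9.83 ± 0.20, n = 3), carboplatin (8.85 ± 0.42, n = 4) and DMSO (8.62 ± 0.12, n = 3). MYC followed the same order (9.13 ± 0.14, 9.05 ± 0.12, 8.63 ± 0.48 and 8.39 ± 0.15). In DUSP6 and ETV4 INK128 stood first, at 8.97 ± 0.18 and 10.19 ± 0.07, before the combination at 8.83 ± 0.20 and 10.09 ± 0.13. The neighbours INK128 and combination, and carboplatin and DMSO, overlapped in each gene, so that no order within these pairs is shown. The gap between the upper pair and carboplatin was free of overlap in SPRY4, DUSP6 and ETV4 and not in MYC. In total RNA the order of the means was INK128, carboplatin, DMSO in the 4 genes. MYC overlapped at both steps and DUSP6 between carboplatin and DMSO, so that no order is shown there.

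**Figure D2:**
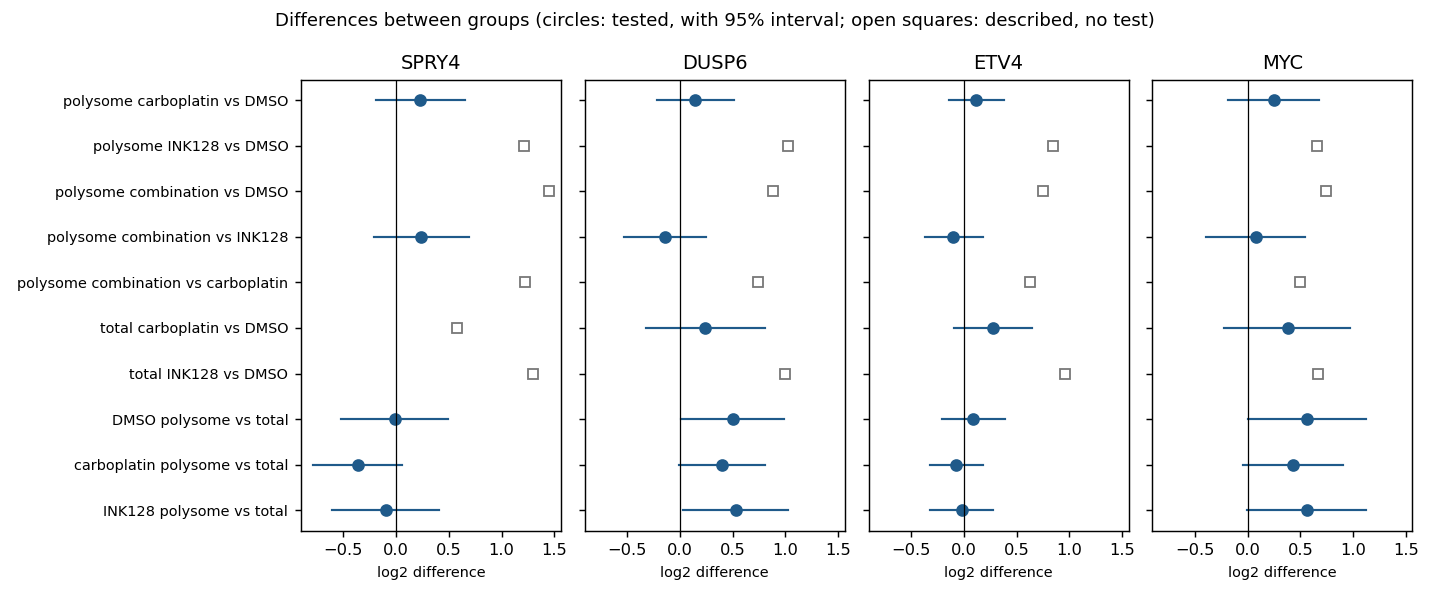
Log2 differences between groups for each of the 4 genes, with 1 row for each comparison. Filled circles with lines are tested differences with their 95% interval, and open squares are differences that the choice of the genes used, shown without a test. The combination stands above carboplatin in the 4 genes (by 1.22 in SPRY4 and 0.50 in MYC), and the interval of combination against INK128 spans 0 in each.

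Polysome and total RNA were then set side by side, to ask whether each transcript's signal stood higher in heavy polysome RNA than in total RNA. The difference is relative to the other genes on each array and is not the share of a transcript on polysomes. The study's methods say that the fractions were quantile normalized apart for part of the analysis, so a level set across them may carry a difference between the normalizations. DUSP6 and MYC stood higher in polysome RNA than in total RNA under each treatment, by 0.50, 0.40 and 0.53 for DUSP6 in DMSO, carboplatin and INK128, and by 0.56, 0.43 and 0.56 for MYC. SPRY4 gave -0.01, -0.36 and -0.10, and ETV4 gave 0.09, -0.07 and -0.02. None of these differences passed over all genes (adjusted p from 0.123 to 0.981), while 4.33%, 26.2% and 16.2% of all tested genes did in the 3 treatments. The median over all tested genes was 0.06, 0.14 and 0.11. The sign of the small SPRY4 and ETV4 differences in DMSO and INK128 turned in some fits with 1 array left out (from -0.18 to 0.15 for SPRY4 in DMSO). DUSP6 passed with INK128 in 1 of 20 such fits, without INK128 total array 1 (0.86, adjusted p = 0.0322). Total RNA came from the lysates of the polysomes, and with arrays of a lysate as a random block, as far as the dataset columns pair them (5 pairs, in DMSO and carboplatin), none of the 4 genes passed either.

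The change of the polysome to total difference with treatment, here called translation efficiency, was small against its error in the 4 genes. For INK128 against DMSO it was -0.08 in SPRY4 (interval -0.80 to 0.63), 0.03 in DUSP6 (-0.67 to 0.72), -0.12 in ETV4 (-0.54 to 0.31) and -0.01 in MYC (-0.80 to 0.79). For carboplatin it was -0.35 in SPRY4 (interval -1.01 to 0.31), -0.10 in DUSP6, -0.16 in ETV4 and -0.13 in MYC. The adjusted p-values were 0.999 to 1. Limma called 0 of 7442 genes for INK128 (0%) and 0 for carboplatin (0%), with 92 and 58 at an unadjusted p under 0.05. The intervals reach past a 1.5-fold change in SPRY4, DUSP6 and MYC, so that a change of that size was not detectable with these arrays.

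The 4 arrays left out give the remaining view of the combination in total RNA. They were given the conditions of the dataset columns whose values they hold, a setting added after the data had been seen. Then 2 total RNA arrays of the combination held SPRY4 at 9.81 and 9.62, DUSP6 at 8.77 and 9.02, ETV4 at 10.02 and 9.81, and MYC at 8.70 and 8.67. Each of these was above both DMSO arrays of total RNA. How many of all tested genes had this pattern was not counted, so nothing is read from it. Against DMSO the differences were 1.08 for SPRY4, 1.44 for DUSP6, 0.67 for ETV4 and 0.86 for MYC. They are a description with no test, since the choice of members used these DMSO arrays. Of all tested genes 0.269% were called higher, and nothing is read from this share. Against carboplatin in total RNA DUSP6 was higher by 1.15, and SPRY4, ETV4 and MYC differed by 0.47, 0.38 and 0.39. By the dataset columns, these combination arrays share lysates with combination polysome arrays 1 and 3, from which the members were chosen. The carboplatin arrays of total RNA were used to choose SPRY4. These differences are therefore a description too, and nothing is read from the 5.64% of all tested genes called higher. By their labels the 2 arrays taken here as combination would be carboplatin arrays. The combination arrays by label held lower values for SPRY4 (9.28 and 9.33), DUSP6 (8.28 and 7.91) and ETV4 (9.56 and 9.56), while MYC was at 8.96 and 8.60.

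Across the 13 polysome arrays the 4 transcripts varied together. They were chosen for higher signal with INK128 and the combination on these arrays, so a high correlation was largely set by that choice. Pearson's r was 0.92 for SPRY4 and DUSP6, 0.91 for SPRY4 and MYC, 0.90 for SPRY4 and ETV4, 0.87 for DUSP6 and MYC, 0.84 for DUSP6 and ETV4 and 0.72 for ETV4 and MYC. The arrays share their treatment groups, and after each group's mean was taken out r was 0.89 for SPRY4 and MYC, 0.75 for DUSP6 and MYC and 0.62 for SPRY4 and DUSP6, while ETV4 gave 0.33, -0.24 and 0.05 with SPRY4, DUSP6 and MYC. These are descriptions over arrays that also share the split between coded and other carboplatin arrays.

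The named genes with a pattern most like each member, by Pearson's r over the same 13 arrays, were TMEM45B (0.979), CAMTA2 (0.977), PDZK1IP1 (0.977), EZH1 (0.976) and RIN2 (0.968) for SPRY4. For DUSP6 they were PDPR (0.979), LTBP2 (0.972), HSPG2 (0.972), PLXNA3 (0.97) and LTBP3 (0.966). LTBP2 and LTBP3 are matrix proteins of the family that binds latent TGF-beta, and HSPG2 is the proteoglycan perlecan. For ETV4 they were ARRDC4 (0.948), TXNIP (0.945), CREBRF (0.94), PDZK1IP1 (0.933) and METTL27 (0.93). ARRDC4 and TXNIP are arrestin-domain proteins that limit glucose uptake. For MYC they were C1orf116 (0.979), SHANK2 (0.97), LOC100129534 (0.969), CP (0.965) and SUSD6 (0.964). PDZK1IP1 was in the lists of both SPRY4 and ETV4, and no member was among the 5 nearest of another.

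Other transcripts known to follow ERK were counted in polysome RNA from a list chosen with earlier results of these data known. Of the 17 listed, 10 were tested, and with INK128 4 rose and 0 fell. They were SPRY2, a second Sprouty inhibitor (1.02, SE 0.25, adjusted p = 0.0232), DUSP4, a nuclear phosphatase of ERK (0.78, adjusted p = 0.0339), EPHA2, an ephrin receptor (0.63, adjusted p = 0.0451), and ETV5, a PEA3 factor like ETV4 (0.60, adjusted p = 0.0418). The list's median difference was 0.46, against -0.02 over all tested genes, of which 4.62% were called higher. SPRY2 was at 9.20, 8.54 and 8.34 in DMSO and at 9.81, 9.77 and 9.55 with INK128, without overlap. The count of 4 fell to 0 without DMSO array 3, INK128 array 2 or INK128 array 3, to 1 without DMSO array 1 or INK128 array 1, to 2 without combination array 2 or coded carboplatin array 3, and to 3 without carboplatin array 2 or 3 or combination array 1. The direction of the 4 genes held in 13 of 13 such fits.

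With the combination, SPRY2 (0.83, adjusted p = 0.0407) and EPHA2 (0.69, adjusted p = 0.025) were higher than in DMSO and 0 of the 10 were lower, with a list median of 0.27 against -0.08. Of all tested genes 4.56% were called higher and 8.52% lower. This contrast shares its DMSO arrays with the last. SPRY2 kept its call in 5 of 13 fits with 1 array left out and EPHA2 in 10, with the highest adjusted p of 0.158 without DMSO array 3 for SPRY2 and of 0.0786 without combination array 2 for EPHA2. Against carboplatin alone, SPRY2 (0.98, adjusted p = 0.0116) and ETV5 (0.62, adjusted p = 0.0172) were higher in the combination, and DUSP7, another phosphatase of ERK, was lower by 0.52 on the log2 scale (adjusted p = 0.0326). In that comparison 5.67% of all tested genes were called higher and 12.1% lower. SPRY2 kept that call in 12 of 13 fits, ETV5 in 11 and DUSP7 in 7, the first missing at an adjusted p of 0.0508 without combination array 2. In total RNA 0 of the 10 passed with INK128, where DUSP4 stood at 1.18 (adjusted p = 0.109) and SPRY2 at 1.03 (adjusted p = 0.10). Only 0.121% of all tested genes were called higher there and 0.0941% lower.

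Among receptors and ligands upstream of RAS, 14 of 22 listed genes were tested, and with INK128 3 rose and 0 fell in polysome RNA, where 4.62% of all tested genes were called higher and 3.6% lower. With the label's replicate number as a block, which the arrays of DMSO and INK128 bear out, 5 were higher and 1 lower, the added calls being ERBB4 (adjusted p = 0.0494), IRS2 (0.0102) and HBEGF (0.0426, lower). EGFR, the receptor of epidermal growth factor, was at 8.63, 9.35 and 9.06 in DMSO and at 10.25, 10.21 and 10.28 with INK128, a difference of 1.24 (SE 0.24, adjusted p = 0.00679). IGF1R, the receptor of insulin-like growth factor, was at 6.82, 6.77 and 6.81 in DMSO and at 7.46, 7.35 and 7.59 with INK128 (0.67, adjusted p = 0.00413). Both receptors were free of overlap, and their calls held in 13 of 13 fits with 1 array left out. Like the ERK list, this list and those below were chosen with earlier results of these data known. Their calls and fits are therefore not independent of that choice. MET, the receptor of hepatocyte growth factor, rose by 0.54 (adjusted p = 0.043) and kept its call in 7 of 13 fits, with 0.157 the highest adjusted p, without INK128 array 2. In total RNA EGFR was also higher with INK128, by 1.09 (adjusted p = 0.045), and passed in 1 of 7 fits with an array left out, its adjusted p reaching 0.749 without DMSO total array 2.

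In the combination EGFR was higher than in DMSO by 1.24 (adjusted p = 0.00643, held in 13 of 13 fits) and IGF1R by 0.41 (adjusted p = 0.0365, held in 5 of 13, up to 0.116 without combination array 2). Against carboplatin alone, EGFR was higher in the combination by 0.89 (adjusted p = 0.0158, held in 12 of 13 fits, 0.0588 without combination array 2). Here 4 members of the list were lower, where 12.1% of all tested genes were called lower and 5.67% higher, among them the ligands FGF2 (-1.14, adjusted p = 0.00435), HBEGF (-0.63, adjusted p = 0.00435) and BTC (-0.92, adjusted p = 0.0439). HBEGF, a ligand of EGFR, was at 7.13 and 7.11 on carboplatin arrays 2 and 3, at 6.92 and 6.79 on the coded arrays, and at 6.37, 6.31 and 6.41 in the combination, without overlap. The calls of FGF2 and HBEGF held in 13 of 13 fits and that of BTC in 4 (up to 0.203 without combination array 3).

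**Figure D3:**
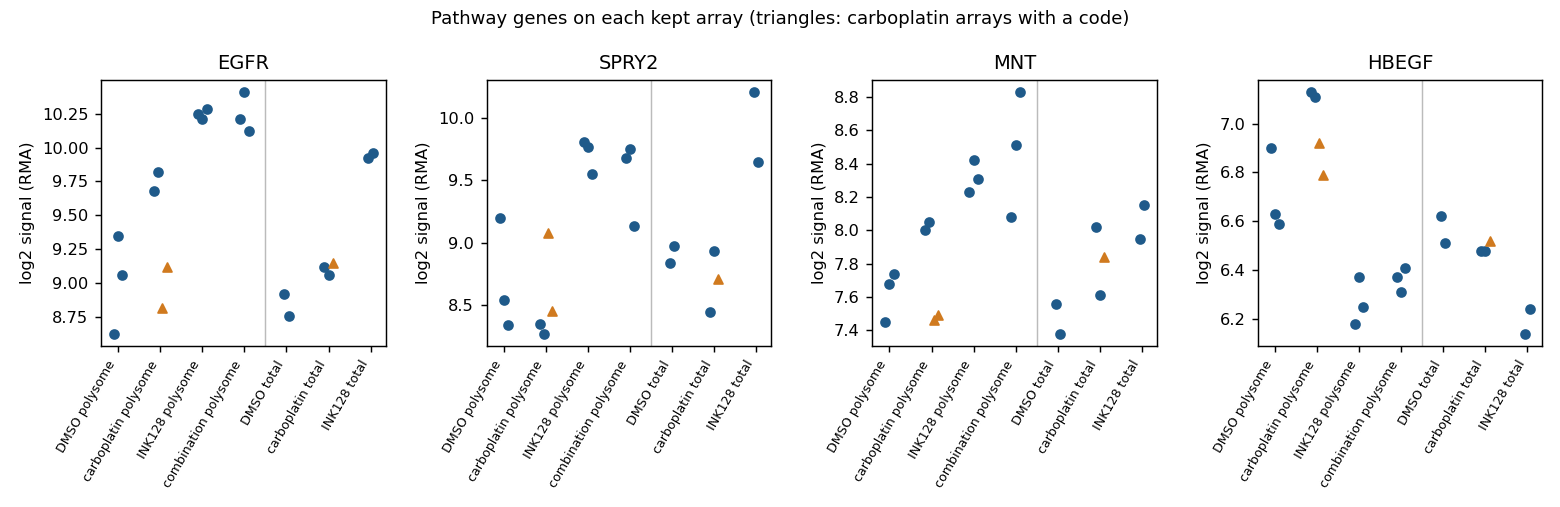
Log2 signal of EGFR, SPRY2, MNT and HBEGF on each kept array, by treatment, with polysome RNA left and total RNA right of the grey line. Each point is 1 array, and triangles are carboplatin arrays with a code. EGFR lies between 10.12 and 10.41 on the INK128 and combination arrays of polysome RNA and at 9.82 or below on the other polysome arrays, and HBEGF lies lowest on the INK128 and combination arrays, at 6.18 to 6.41 in polysome RNA.

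The kinases, adaptors and nuclear factors of the cascade itself and the immediate early genes gave 0 calls with INK128 in limma. In polysome RNA 4.62% of all tested genes were called higher with INK128 and 3.6% lower. Of the 18 tested genes of the RAS to ERK cascade, 0 passed with INK128, where the scaffold IQGAP1 came nearest (0.56, adjusted p = 0.0502, and 0.0162 with the replicate number as a block) and the kinase ARAF stood at -0.38 (adjusted p = 0.211). IQGAP1 rose in the combination against DMSO (0.89, adjusted p = 0.00528, held in 13 of 13 fits) and against carboplatin (0.64, adjusted p = 0.013, held in 12 of 13, 0.0555 without combination array 2). ETS1, an ETS factor that ERK phosphorylates, was lower in the combination than with carboplatin (-0.89, adjusted p = 0.0144, held in 13 of 13 fits). Of the 19 tested immediate early genes, 0 passed with INK128, and the largest differences were KLF2 (0.52, adjusted p = 0.0625) and TRIB1 (0.41, adjusted p = 0.16). KLF2, a zinc finger factor, rose in the combination against DMSO (0.72, adjusted p = 0.0146, held in 12 of 13 fits, 0.0618 without DMSO array 3). Against carboplatin KLF2 was higher (0.56, adjusted p = 0.0228) and IER5 was lower (-0.59, adjusted p = 0.0309), held in 10 and 9 of 13 fits with up to 0.0896 and 0.131 without combination array 3. The medians of these lists with INK128 were -0.03 and 0.11. At an unadjusted p under 0.05 the cascade had 1 gene higher and 0 lower with INK128 in polysome RNA. The immediate early genes had 4 higher and 1 lower. Of all tested genes 24.4% had such a p in either direction, so nothing is read from these counts. With array weights, which gave 3938 calls over all genes in that contrast, 3 cascade genes were called higher and 3 lower, and 11 immediate early genes were called higher. Of 6 other DUSP genes, listed as phosphatases of JNK and p38 without regard to other substrates, 0 passed with INK128 (median -0.24). DUSP8 was lower in the combination than with carboplatin (-0.40, adjusted p = 0.0483, held in 3 of 13 fits, up to 0.171 without combination array 2).

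MYC's partners and targets were counted beside it. Of 9 tested partners and relatives, MNT, which binds MAX and represses MYC's target sites, rose with INK128 (0.69, adjusted p = 0.0472), and 0 fell. Among all tested genes 4.62% were called higher with INK128 and 3.6% lower. MNT was at 7.45, 7.68 and 7.74 in DMSO and at 8.23, 8.42 and 8.31 with INK128, without overlap, and kept the call in 4 of 13 fits (up to 0.17 without INK128 array 2). It was also higher in the combination, by 0.85 against DMSO (adjusted p = 0.0172) and 0.72 against carboplatin (adjusted p = 0.0194), held in 10 of 13 fits each, with up to 0.0577 and 0.0845 without combination array 3. MLX, a relative of MAX, was lower in the combination than with carboplatin (-0.68, adjusted p = 0.0345, held in 7 of 13 fits, up to 0.129 without combination array 3). Of the 10 tested targets that MYC is known to raise, 0 passed with INK128, with a median of -0.24, where MYC itself stood 0.66 above DMSO.

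In the combination 3 of the 10 targets were lower than in DMSO and 0 higher, with a median of -0.43 against -0.08 over all genes. They were NOP58 (-0.72, adjusted p = 0.0498) and FBL (-0.47, adjusted p = 0.0383), both of the complex that modifies ribosomal RNA, and LDHA, lactate dehydrogenase (-0.46, adjusted p = 0.0495). The calls held in 2, 5 and 1 of 13 fits, with the highest adjusted p (0.156, 0.127 and 0.157) without DMSO array 3. Against carboplatin 4 of the 10 were lower and 0 higher, with RRS1, a ribosome assembly factor, at -1.33 (adjusted p = 0.0126, held in 13 of 13 fits) and NOP58 at -0.81 (adjusted p = 0.0202, held in 11, 0.064 without combination array 3). FBL (-0.46, adjusted p = 0.0275) and LDHA (-0.44, adjusted p = 0.0397) held in 7 and 3 of 13 fits, with 0.0964 and 0.151 without combination array 3. For comparison, 12.1% of all tested genes were called lower against carboplatin and 8.52% against DMSO.

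**Figure D4:**
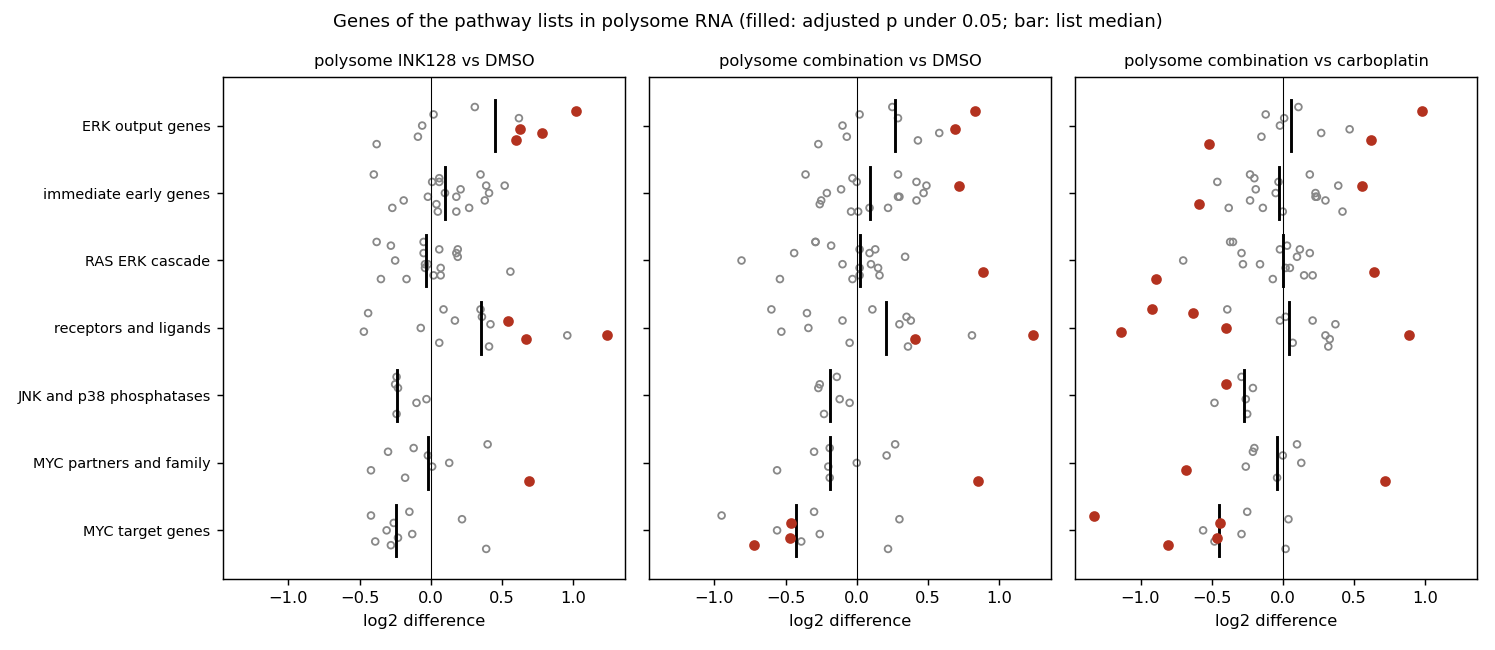
Log2 differences in polysome RNA of the tested genes of 7 lists around ERK and MYC, with the 4 members left out, for INK128 and the combination against DMSO and for the combination against carboplatin. Each circle is 1 gene, filled where the adjusted p was under 0.05, and black bars are list medians. With INK128 the filled genes lie to the right in 3 lists (ERK output genes, receptors and ligands, MYC partners), and against carboplatin the 4 filled MYC targets lie to the left.

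With carboplatin alone and between combination and INK128, 0 genes of the 7 lists passed in polysome RNA. The largest differences with carboplatin were FOSL1 (0.88), an AP-1 factor, and FGF2 (0.61), both at an adjusted p of 1. Between fractions, 1, 7 and 5 of the 14 receptors and ligands were higher in polysome RNA in DMSO, carboplatin and INK128, against 4.33%, 26.2% and 16.2% of all tested genes in either direction. INSR, the insulin receptor, was higher in polysome RNA by 0.87, 1.03 and 1.03 (adjusted p 0.032, 0.00155 and 0.0134), and its calls held in 16, 20 and 17 of 20 fits, with up to 0.279 without DMSO total array 2 and 0.184 without INK128 total array 2. The ERK output genes gave 0 calls in each treatment between fractions.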

How the data were processed

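The deposited values are log2 signals of 53617 probesets on 24 arrays, to which the authors applied RMA (background correction, quantile normalization and summary of probes) in Expression Console 1.4.1, per the submitters' processing notes. Per the study's methods, total and polysome RNA were quantile normalized apart to compare transcription and translation. Whether the deposited values come from that step is not stated there, and quantile normalization can hide a shift common to all mRNA. No raw intensities were used, and the number of arrays limits the precision. The platform's annotation gave a single symbol to 16098 probesets and none to 37519. For each symbol the probeset of highest mean signal stood for the gene (14884 genes), and the 7442 with a mean of at least 6.54 were tested. Comparisons were fitted with limma 3.58.1 (R 4.3.3, data.table version 1.17.8). Polysome and total RNA were each fitted over all treatments without covariates, and comparisons between fractions over both. Benjamini-Hochberg adjustment ran over all tested genes, and an adjusted p under 0.05 was called. The fitting code was tested on simulated data.

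Groups were taken from the labels. The 4 arrays whose values the study's dataset tables give for other conditions were left out, or reassigned as an alternative. The members and the gene lists were chosen with earlier results of these data known. Named were the members, from each list the genes past the threshold in a comparison, up to the 4 largest changes, or else the 2 largest, and the 5 genes most correlated with each member. For some lists and comparisons, fewer were printed. Alternatives concerned the arrays in conflict, coded carboplatin arrays, normalization, filter, probesets, samples in the fit, array weights, a replicate block, the threshold and each array left out. The reassigned comparisons of combination total RNA, the interaction, the coded arrays alone and a block by dataset column numbers were chosen after seeing the data. Same-numbered DMSO and INK128 arrays of polysome RNA deviated together (r of 0.16 to 0.36 in 3 pairs), which bears out pairing there. Fractions share lysates, but label numbers do not tie them: by the dataset columns that hold their values, DMSO total 2 goes with DMSO polysome 3. Promoter windows came from RefSeq, where 1 of the 4 members had a window used here. Protein sequences were not used here.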

Additional observations from a re-analysis of the deposited data

Results flagged for a closer look

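The arrays that the comparisons did not use, those labelled carboplatin polysome 1, carboplatin total 1 and combination total 1 and 2, held each of the 4 transcripts above the highest DMSO array of the labelled fraction, in 16 of 16 values. The array labelled carboplatin polysome 1 had SPRY4 at 9.81, DUSP6 at 8.77, ETV4 at 10.02 and MYC at 8.70. The array labelled carboplatin total 1 had SPRY4 at 9.62, DUSP6 at 9.02, ETV4 at 9.81 and MYC at 8.67. The array labelled combination total 1 had SPRY4 at 9.28, DUSP6 at 8.28, ETV4 at 9.56 and MYC at 8.96, and that labelled combination total 2 had SPRY4 at 9.33, DUSP6 at 7.91, ETV4 at 9.56 and MYC at 8.60. The highest DMSO values were 8.73, 8.18, 9.54 and 8.55 in polysome RNA and 8.79, 7.68, 9.37 and 7.94 in total RNA. By the dataset columns that hold their values, the array labelled carboplatin polysome 1 is of total RNA. That labelled combination total 1 is of polysome RNA, where its DUSP6 (8.28) and ETV4 (9.56) are close to the highest DMSO values (8.18 and 9.54). The share of all tested genes with the same pattern was not counted, so nothing is read from the 16 of 16. These values were not tested, since the labels of the arrays and their values disagree.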

How the results depend on the processing

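Differences of the 4 genes kept their sign in each contrast of INK128 or combination against DMSO and of combination against carboplatin, under all alternatives run. In combination against carboplatin they moved without the coded arrays to 0.87 for SPRY4, 0.48 for DUSP6 and 0.09 for MYC, with the label's number as a block to 0.91, 0.49 and 0.16, and with 1 array left out over 1.10 to 1.38, 0.64 to 0.84 and 0.35 to 0.68. MYC with carboplatin in polysome RNA passed without the coded arrays (0.65, adjusted p = 0.0393), and MYC between fractions in DMSO passed with array weights (0.53, adjusted p = 0.0036). Leaving out 1 array moved DUSP6 between fractions with INK128 from 0.19 to 0.86 and ETV4 with INK128 in total RNA from 0.84 to 1.09. Array weights moved DUSP6 in combination against DMSO to 1.18. Of 985 tested values of the members under alternatives 982 kept their side of the threshold, and 45, all of differences without a call, changed sign. The cause of these changes was not tested.

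Counts of called genes moved with the setting. Polysome RNA with INK128 gave 612 calls, 306 with all arrays by label, 3938 with array weights and 168 to 954 with 1 array left out (the lowest without DMSO polysome 3). The combination against DMSO gave 973, and 556 by label, 59 with only the groups compared, 2977 with array weights and 219 to 1388 with 1 array left out. Against carboplatin it gave 1322, 748 with only the groups compared and 811 to 1860 with 1 array left out. INK128 in total RNA gave 16 calls, 0 by label, with arrays centred on their median, with every probeset on its own or with only the groups compared, 216 with the 4 arrays reassigned, 34 after quantile normalization within fractions, 35 with array weights and 0 to 59 with 1 array left out. Carboplatin in polysome RNA gave 235 calls without the coded arrays, and in total RNA 11, with 0 to 11 when 1 array was left out.

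Between fractions DMSO gave 322 calls, 2 by label, 704 with the reassignment, 497 after quantile normalization, 138 with arrays centred, 0 with only the groups compared, 4132 with array weights and 1 to 1538 with 1 array left out. Carboplatin gave 1949, 0 by label, 721 without the coded arrays and 1016 to 2340 with 1 array left out. INK128 gave 1202, 0 by label, 575 with array weights and 3 to 1744 with 1 array left out. The interaction gave 40 calls without the coded arrays. At an unadjusted p under 0.05 with the methods' fold threshold, the counts were 27 for carboplatin in polysome RNA, 23 for combination against INK128, 97 and 10 for INK128 and carboplatin in total RNA, 781 and 1000 between fractions in DMSO and carboplatin, 45 and 20 for the translation efficiency of INK128 and carboplatin and 40 for the interaction. Calls in the higher direction were 34.8% of those of combination against DMSO and 31.9% of those against carboplatin, and 49.4% and 45.9% after quantile normalization within fractions. Against carboplatin the share was 21.1% with arrays centred.

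Same-numbered arrays correlated in their deviations at -0.03 to 0.44 between treatments, over 0.1 in 9 of 17 pairs and in 3 of 3 between DMSO and INK128 polysome RNA, and at -0.05 to 0.25 between fractions, where label numbers can join arrays of different lysates. Arrays of a lysate by dataset column correlated at 0.02 to 0.54 (over 0.1 in 3 of 5 pairs). With the label's number as a block, the counts were 953, 1521 and 209 for INK128, combination and carboplatin against DMSO in polysome RNA, 302 and 51 for INK128 and carboplatin in total RNA, 37, 690 and 762 between fractions in DMSO, carboplatin and INK128, and 36 for the interaction. SPRY4 with carboplatin in total RNA moved from 0.58 to 0.96 under the block, and no tested value of the 4 genes changed its call. With dataset column numbers as a random block, the count between fractions in DMSO was 552, and the other counts stayed within 1.5 times those given first. Total RNA alone shared too few numbers for that fit.

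Groups of 2 to 4 arrays set the precision, and no combination array of total RNA was used under its label.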
